A study of Mus musculus with 4 samples.

Results

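The mouse genes Zfp900 to Zfp999 encode zinc finger proteins, most of them of the KRAB type. Of 64 such symbols in the GENCODE M21 annotation of the mouse genome (GRCm38), 58 had a row in the table of 18276 genes, and these 58 are the members described here. The rule that picks them uses gene names and no measured value. The 6 remaining symbols were not analysed here. A KRAB zinc finger protein binds DNA through a row of C2H2 zinc fingers, and its KRAB domain recruits the corepressor TRIM28 (KAP1), which in turn brings the histone methyltransferase SETDB1 and heterochromatin protein HP1. Many of these proteins silence transposable elements such as endogenous retroviruses. Their genes lie in tandem clusters that have expanded recently in rodents and differ in gene content between mouse strains.

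The values come from poly(A) RNA of osteoclast progenitors, sorted from fresh bone marrow as cells negative for B220, CD3 and Mac-1 and positive for CD115. The Ptip_KO group is 2 libraries from mice carrying Ptip flox/flox and Mx-1Cre, a Cre driver switched on by interferon in blood-forming and other cells, and the WT group is 2 libraries from WT mice that also carry Mx-1Cre. Ptip, gene symbol Paxip1, encodes a protein found in complexes that methylate lysine 4 of histone H3. All 4 samples are labelled with a mixed B6;129 background, and which strain's alleles a library carried at a zinc finger cluster was not measured here. The labels give no age. The series text calls the replicates independent without naming separate animals.

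Reads counted to the listed genes, recovered from the deposited values, came to 76184092 and 67592972 in Ptip_KO and 77773478 and 77417411 in WT. Levels are given as CPM, which here means reads scaled to the authors' effective library size, and 1 read was worth 0.0127 to 0.0143 CPM. Paxip1, the deleted gene, had 5.10 and 3.73 CPM in Ptip_KO libraries, against 106 and 103 CPM in WT libraries (log2 fold change −4.29, limma adjusted p = 0.000383). All 8 listed markers of osteoclast progenitors and monocytes were tested, with 1 lower in Ptip_KO and summed levels of 3468 to 3940 CPM in Ptip_KO and 4029 to 4558 CPM in WT. Markers of other cells moved with genotype: 8 of 12 erythroid markers were lower in Ptip_KO, with a summed level of 809 to 1108 CPM in Ptip_KO and 2095 to 4831 CPM in WT. Of 8 tested macrophage markers, 7 were lower, with summed levels of 23.1 to 27.1 CPM in Ptip_KO and 114 to 136 CPM in WT. Of the remaining lists, 1 of 10 neutrophil markers was lower and 1 of 2 tested B cell markers higher, with 0 of 1 tested T cell and 0 of 2 tested megakaryocyte markers called by limma. None of the erythroid and macrophage markers was under 1 CPM in all 4 libraries, and their part in the results below was not tested. Xist stood at 298 CPM in WT replicate 2, where the Y-encoded Ddx3y was at 0.101 CPM. In the 3 remaining libraries Ddx3y was at 69.1 to 89.6 CPM. The WT libraries thus came from different animals, a male and a female, while the 2 Ptip_KO libraries are not shown to be separate animals, and the spread between them may be technical. Both Ptip_KO libraries had the male pattern, so sex was not balanced between the groups and cannot be fully told apart from genotype. Only the fit without WT replicate 2 compares libraries of the same sex. An effect of sex on the members was not tested. All members lie on autosomes.

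The label was checked against the annotated transcripts. Among 57 members with a protein-coding transcript, a C2H2 zinc finger pattern was found in the longest open reading frame of 56, with a median of 11 fingers and at most 21. The exception, Zfp972, had 0. A pattern of the conserved residues of the KRAB A box was found in 50 of the 57. The remaining member, Zfp939, is annotated as a pseudogene. In 31 members, at least 1 transcript matched a transcript of another gene with 95% or more identical bases, over a stretch of 200 nucleotides or more that covered 50% of the shorter transcript. Reads of such genes may not be told apart, and counts of these members are uncertain.

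The members lie on 11 chromosomes, and 39 of the 58 fall into 5 clusters, defined as neighbours at most 1 Mb apart. The largest holds 16 members on distal chromosome 4 (chr4:145510759-147848366, GRCm38), from Zfp990 to Zfp933. A chromosome 17 cluster of 10 members runs from Zfp948 to Zfp945 (chr17:21567008-22867134), and a chromosome 2 cluster of 7 members from Zfp968 to Zfp931 (chr2:175372436-178078476). Chromosome 7 (chr7:42579783-42692742) and chromosome 8 (chr8:69209038-69749970) hold clusters of 3 members each. The other 19 members stand apart.

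Genes of the chromosome 4 cluster resemble each other upstream of their starts, as the following windows show. They are the 250 bases before the RefSeq start (GRCm38.p6) of 4 genes: Zfp985, one of the 2 members called lower in Ptip_KO, and 3 neighbours that were not lower. The windows are chr4:147553027-147553276 on the plus strand for Zfp985, chr4:147492167-147492416 on the plus strand for Zfp982, chr4:147642509-147642758 on the minus strand for Zfp979 and chr4:147809789-147810038 on the minus strand for Zfp984. In Zfp985 the capitals mark an inverted CCAAT box that shares 2 bases with a GC box, GGGCGG. In the others the capitals mark bases that differ from Zfp985 or have no partner in it.
Zfp985: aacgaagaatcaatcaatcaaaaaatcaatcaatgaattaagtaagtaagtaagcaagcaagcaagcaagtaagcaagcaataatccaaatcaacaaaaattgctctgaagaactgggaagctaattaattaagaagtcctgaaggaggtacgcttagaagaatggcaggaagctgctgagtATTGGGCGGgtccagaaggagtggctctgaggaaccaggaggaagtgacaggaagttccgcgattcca
Zfp982: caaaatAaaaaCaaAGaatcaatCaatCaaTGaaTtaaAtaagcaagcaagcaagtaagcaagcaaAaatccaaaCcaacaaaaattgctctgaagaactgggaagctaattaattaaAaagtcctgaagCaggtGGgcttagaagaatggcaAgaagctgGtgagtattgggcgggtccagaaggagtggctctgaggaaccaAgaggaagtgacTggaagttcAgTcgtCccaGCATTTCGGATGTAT
Zfp979: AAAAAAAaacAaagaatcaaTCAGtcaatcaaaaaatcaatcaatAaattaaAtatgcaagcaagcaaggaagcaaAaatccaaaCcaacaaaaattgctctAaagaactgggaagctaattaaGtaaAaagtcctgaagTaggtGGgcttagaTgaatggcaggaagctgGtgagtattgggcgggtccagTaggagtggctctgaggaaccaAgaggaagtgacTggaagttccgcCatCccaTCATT
Zfp984: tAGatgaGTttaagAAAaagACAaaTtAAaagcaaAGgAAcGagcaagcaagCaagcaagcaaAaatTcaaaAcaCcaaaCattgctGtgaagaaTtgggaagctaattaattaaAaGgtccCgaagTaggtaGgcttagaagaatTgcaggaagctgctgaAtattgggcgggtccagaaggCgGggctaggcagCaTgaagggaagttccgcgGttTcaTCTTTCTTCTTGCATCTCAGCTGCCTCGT
Over the aligned bases, Zfp982 was identical to Zfp985 at 91.0%, Zfp979 at 92.3% and Zfp984 at 86.7%. Windows not shown here were closer still: Zfp988 at 95.3%, Zfp987 at 94.5% and Zfp980 at 93.5%. Of these low-level genes, Zfp988 and Zfp980 had both Ptip_KO libraries below both WT libraries, while the groups overlapped in Zfp987. For Zfp980 the gap was within a few reads, with 0 and 14 reads in Ptip_KO libraries against 19 and 16 in WT libraries. Whether likeness to Zfp985 goes with a change was not tested. RefSeq windows were found for 49 members, 10 of them in this cluster, and 7 of the 9 others aligned with Zfp985 over at least 200 bases, while those of Zfp993 and Zfp933 did not. The windows of Zfp993 and Zfp981 lie 98112 and 12893 nucleotides from the GENCODE starts of these genes, so bases at those starts were not compared. No window was found for Zfp990.

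Motifs were searched in the same 250 bases on both strands. CCAAT was present in 37 of 49 member windows (75.5%) and in 33.8% of all 32851 promoter windows. GGGCGG was present in 34.7% of member windows and 32.7% of all windows, and TATAAA in 0 of 49 member windows and 12.4% of all windows. The joined form ATTGGGCGG, which contains both of the first 2 motifs, stood in 7 of the 10 windows of the chromosome 4 cluster, in 2 of the 39 windows of other members, and in 76 of all windows (0.231%). These matches are descriptions of letters and not of bound sites.

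Setting Ptip_KO against WT addresses which transcripts differ once Ptip is deleted. A gene had to reach 1 CPM in 2 or more libraries to enter the test, and 44 of the 58 members did. By limma on log2(CPM + 1), with a Benjamini-Hochberg adjusted p under 0.05 over all 12357 tested genes, 5 members were higher in Ptip_KO and 2 were lower. The same call was made for 6.29% of all tested genes, 2.43% in the higher direction and 3.86% in the lower. At an unadjusted p under 0.05, 17 of the 44 members and 23.8% of all tested genes passed. The 5 that rose were Zfp945, Zfp947 and Zfp995 on chromosome 17, Zfp971 on chromosome 2 and Zfp991 on chromosome 4, and the 2 that fell, Zfp990 and Zfp985, both lie in the chromosome 4 cluster. Zfp990 and Zfp985 passed the filter only through the WT libraries, so that any test of them had to find them lower, and the other 42 reached 1 CPM in both groups. In bulk RNA, fewer cells that express a gene and less RNA per cell cannot be told apart. With 2 libraries a group, exact two-sided permutation p-values go no lower than 0.333, and the calls therefore depend on limma's pooling of variance over genes.

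Zfp990 (ENSMUSG00000078503.9, chr4:145510759-145539188, plus strand) showed the largest difference among tested members. It had 0.0657 and 0.0143 CPM in Ptip_KO libraries, which is 5 and 1 reads, against 13.8 and 10.2 CPM, or 1015 and 804 reads, in WT libraries. The transcript was thus close to the level of single reads in both Ptip_KO libraries and clearly present in both WT libraries. The log2 fold change came to −3.63 ± 0.189 (SE, limma adjusted p = 0.00238), a scale that understates the change of a gene this low. Its open reading frame has 13 predicted fingers and the KRAB pattern. Its transcripts have a near-identical stretch in 3 other genes, the closest being Zfp987, at 99.2% over 262 nucleotides.

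Zfp985 (chr4:147553277-147585198, plus strand) fell as well, at a lower level. It had 0.0920 and 0.0856 CPM in Ptip_KO libraries (7 and 6 reads), against 2.43 and 2.10 CPM in WT libraries (179 and 166 reads). Both Ptip_KO libraries lay far below both WT libraries. The log2 fold change was −1.58 ± 0.178 (SE, limma adjusted p = 0.0120). Its transcripts have near-identical stretches in 14 other genes, 9 of them members. With no filter on low values, where passing it could not fix the direction, limma and edgeR each called Zfp990 and Zfp985 lower.

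Of the 16 members of the chromosome 4 cluster, 8 were under the filter, and several of these also had fewer reads in Ptip_KO. Zfp986 had 0 reads in both Ptip_KO libraries and 58 and 29 reads in WT libraries. The mean of its WT libraries was 14.0 times a floor of 3 reads in each Ptip_KO library, a ratio that leaves out the spread between the WT libraries. Zfp978 had 0 reads in both Ptip_KO libraries and 11 and 8 in WT libraries, with a WT mean of 3.05 times the same floor. Zfp988 had 3 and 7 reads in Ptip_KO libraries against 31 and 24 in WT libraries. These 3 genes therefore had no overlap between groups, at counts too low to detect a small difference. On the recovered reads with no filter, edgeR called Zfp986 lower (adjusted p = 0.0246), and limma with no filter gave an adjusted p of 0.0563. That edgeR fit called 4 members higher and 3 lower, with 1.77% and 3.17% of all genes called.

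Other genes of the same cluster were higher in Ptip_KO or missed the threshold. Zfp991 (chr4:147132038-147180579), with 11 predicted fingers, had 12.6 and 11.9 CPM in Ptip_KO libraries, against 5.16 and 7.05 CPM in WT libraries. Its gene body overlaps Gm26624 on the same strand and C230088H06Rik on the opposite one, and 5 genes share a near-identical stretch with it. The groups did not overlap, and the log2 fold change was 0.91 ± 0.164 (SE, limma adjusted p = 0.0368). Zfp984, at 32.9 and 30.9 CPM in Ptip_KO libraries against 21.5 and 24.1 CPM in WT libraries, did not overlap either but missed the threshold (log2 fold change 0.47, limma adjusted p = 0.0616). Among fits that kept all libraries, Zfp984 was called by DESeq2 on the recovered reads (adjusted p = 0.00819). It was also called with a robust variance prior (limma adjusted p = 0.0491) and with the replicate number as a block (limma adjusted p = 0.0481). Zfp982 had 2.23 and 3.21 CPM in Ptip_KO libraries against 0.475 and 2.02 CPM in WT libraries, where WT replicate 1 stood apart. Zfp979, under the filter, had 0.906 and 1.31 CPM in Ptip_KO libraries and 0.298 and 0.875 CPM in WT libraries. Zfp992 had 20.5 and 24.4 CPM in Ptip_KO libraries and 19.4 and 20.8 CPM in WT libraries, so that the groups overlapped. Zfp933, at the far end of the cluster, had 11.1 and 9.51 CPM in Ptip_KO libraries and 11.97 and 11.6 CPM in WT libraries, lower without overlap but past no threshold (log2 fold change −0.18, limma adjusted p = 0.441).

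**Figure D1:**
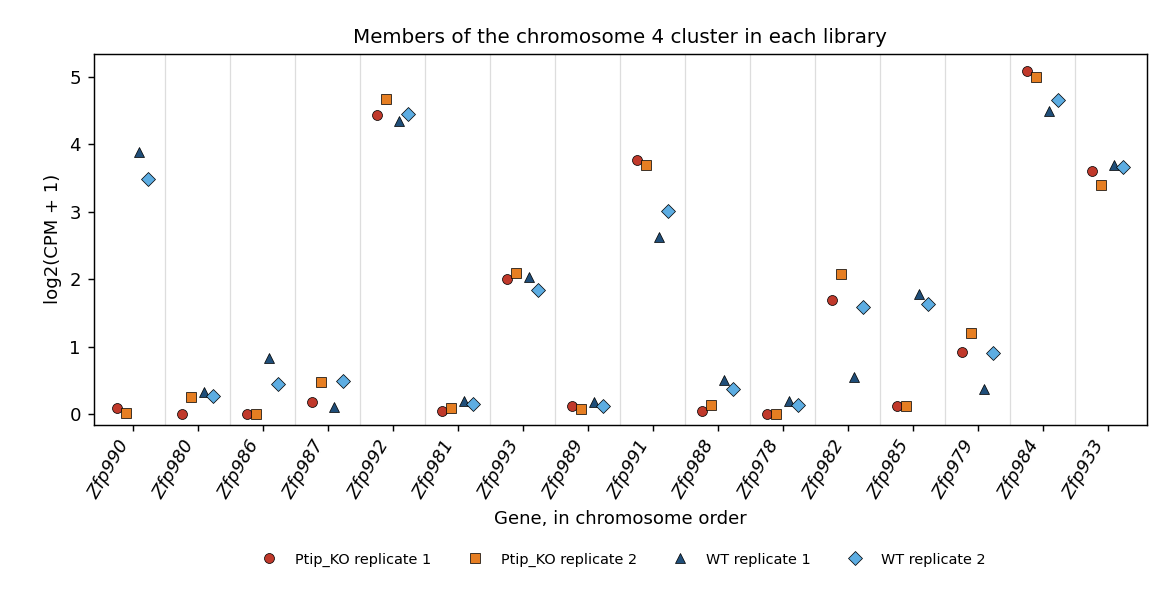
Level of the 16 members of the chromosome 4 cluster as log2(CPM + 1) on the vertical axis, with 1 point per library (Ptip_KO, circles and squares; WT, triangles and diamonds) and genes in chromosome order. Zfp990, Zfp986 and Zfp985 lie near 0 in both Ptip_KO libraries and higher in both WT libraries, while the Ptip_KO points of Zfp991 and Zfp984 lie above those of WT.

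Across the 16 genes of the cluster, 8 had both Ptip_KO libraries below both WT libraries and 4 had both above. Among all tested genes the groups failed to overlap in the lower direction for 27.3% and in the higher direction for 27.7%, and among genes under the filter for 20.7% and 21.2%. The summed level of the 16 genes was nevertheless close in the 2 groups, at 83.7 and 85.4 CPM in Ptip_KO libraries and 80.0 and 82.9 CPM in WT libraries. The members below WT and those above it therefore nearly balanced in reads. Along the chromosome, the genes without overlap from Zfp990 through Zfp981 were all lower in Ptip_KO, though Zfp980 and Zfp981 held few reads. After Zfp981 came Zfp991 higher, Zfp988 and Zfp978 lower, Zfp982 higher, Zfp985 lower, Zfp979 and Zfp984 higher, and Zfp933 lower.

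In the chromosome 17 cluster, by contrast, differences were small and ran one way. All 10 members were tested, with 3 called higher and 0 lower, where 2.43% and 3.86% of all tested genes were called. All 10 had a positive log2 fold change, with a median of 0.36 and a range of 0.09 to 0.86. Of all tested genes, 50.5% were positive. At an unadjusted p under 0.05 the count was 7 of 10, beside 23.8% of all tested genes. Without WT replicate 1, 9 of the 10 were positive, with a median of 0.35, and Zfp948 turned to −0.08. By edgeR on the recovered reads 0 of the 10 were called in either direction.

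Zfp945 (chr17:22846697-22867134), which has 18 predicted fingers but in which the KRAB pattern was not found, had 15.1 and 15.0 CPM in Ptip_KO libraries, against 6.67 and 9.22 CPM in WT libraries. Its log2 fold change was 0.86 ± 0.164 (SE, limma adjusted p = 0.0431). Zfp947 (chr17:22144359-22166190) had 10.96 and 10.6 CPM in Ptip_KO libraries, against 7.07 and 5.95 CPM in WT libraries (log2 fold change 0.65, limma adjusted p = 0.0493). Zfp995 (chr17:21879570-21909926) had 11.4 and 11.5 CPM in Ptip_KO libraries, against 7.20 and 7.04 CPM in WT libraries (log2 fold change 0.62, limma adjusted p = 0.0398). In all 3 genes the Ptip_KO libraries lay close together and above both WT libraries. None of the 3 has a near-identical copy by the rule used here.

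The cluster's most abundant gene by CPM, Zfp994, had 31.8 and 27.7 CPM in Ptip_KO libraries, against 23.5 and 22.0 CPM in WT libraries. It missed the threshold (log2 fold change 0.37, limma adjusted p = 0.120) and was called by DESeq2 (adjusted p = 0.0353). Zfp942, Zfp943, Zfp944, Zfp946 and Zfp983 also had both Ptip_KO libraries above both WT libraries, with log2 fold changes of 0.18 to 0.41 and limma adjusted p from 0.104 to 0.483. Zfp948 was the exception, with 4.28 and 4.08 CPM in Ptip_KO libraries and 3.34 and 4.46 CPM in WT libraries, and its groups overlapped.

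On chromosome 2, the member with the highest level rose. Zfp971 (chr2:178023284-178034022, 12 predicted fingers) had 54.2 and 51.9 CPM in Ptip_KO libraries, against 34.9 and 37.5 CPM in WT libraries. Its log2 fold change was 0.54 ± 0.0912 (SE, limma adjusted p = 0.0318), and it was the single member called higher by edgeR on the recovered reads (adjusted p = 0.0379). Its transcripts have near-identical stretches in 11 other genes, the closest match being 99.2% over 251 nucleotides of Zfp969, and Gm26869 overlaps it on the opposite strand. Zfp970 had 21.6 and 21.04 CPM in Ptip_KO libraries, against 12.2 and 15.8 CPM in WT libraries, without overlap (log2 fold change 0.59, limma adjusted p = 0.0765). Among fits that kept all libraries, it was called only by DESeq2 (adjusted p = 0.0202). Zfp931, Zfp966 and Zfp973 overlapped between groups, with log2 fold changes of 0.20 to 0.34, and Zfp968 and Zfp972 were under the filter.

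**Figure D2:**
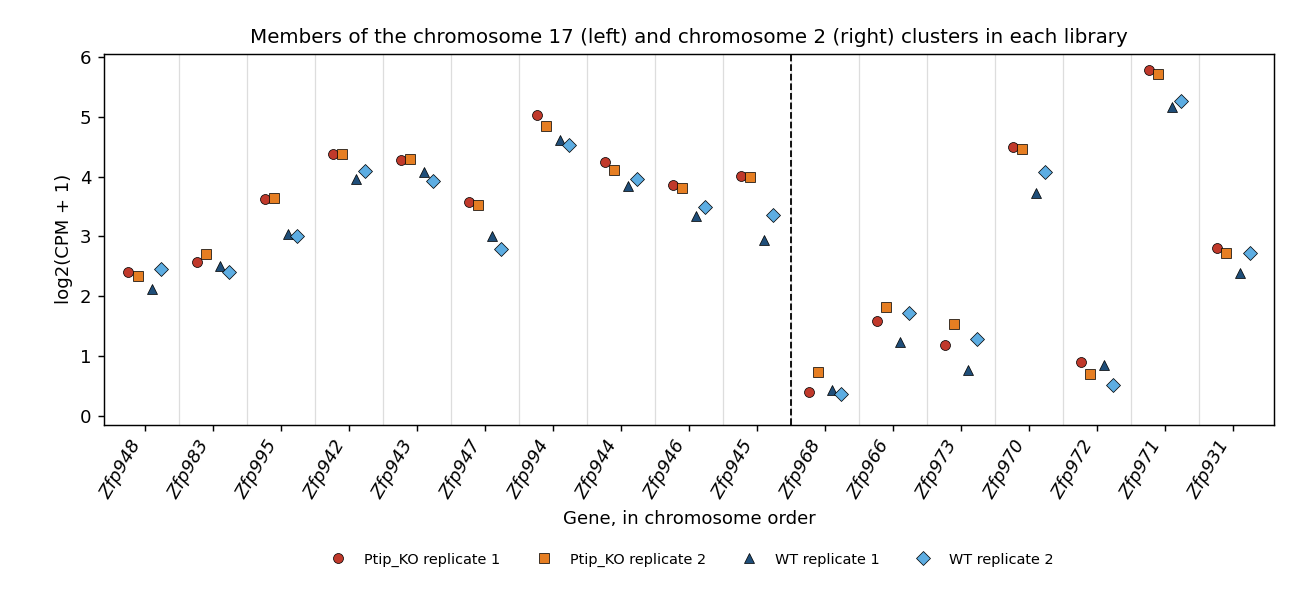
Level as log2(CPM + 1) of the 10 members of the chromosome 17 cluster (left of the dashed line) and the 7 members of the chromosome 2 cluster (right), with 1 point per library. Both Ptip_KO libraries lie above both WT libraries in 9 of the 10 chromosome 17 genes, and in Zfp970 and Zfp971 on chromosome 2. Among all tested genes the share was 27.7%.

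In the main fit the smaller clusters and the single genes held no called member, which was not so in every alternative fit. On chromosome 7, Zfp975 had 5.83 and 5.65 CPM in Ptip_KO libraries, against 3.26 and 4.22 CPM in WT libraries (log2 fold change 0.52, limma adjusted p = 0.123). On chromosome 8, Zfp930 had 15.4 and 15.9 CPM in Ptip_KO libraries, against 12.1 and 13.9 CPM in WT libraries (log2 fold change 0.25, limma adjusted p = 0.263). Of 17 tested members outside clusters, 12 had a positive log2 fold change, with a median of 0.18 and a range of −0.25 to 0.48. Zfp961 on chromosome 8, among the most abundant members, had 24.4 and 23.4 CPM in Ptip_KO libraries and 25.3 and 24.8 CPM in WT libraries (log2 fold change −0.06, limma adjusted p = 0.742). Zfp954 on chromosome 7 had 19.1 and 21.6 CPM in Ptip_KO libraries and 17.4 and 18.1 CPM in WT libraries (log2 fold change 0.19, limma adjusted p = 0.377).

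**Figure D3:**
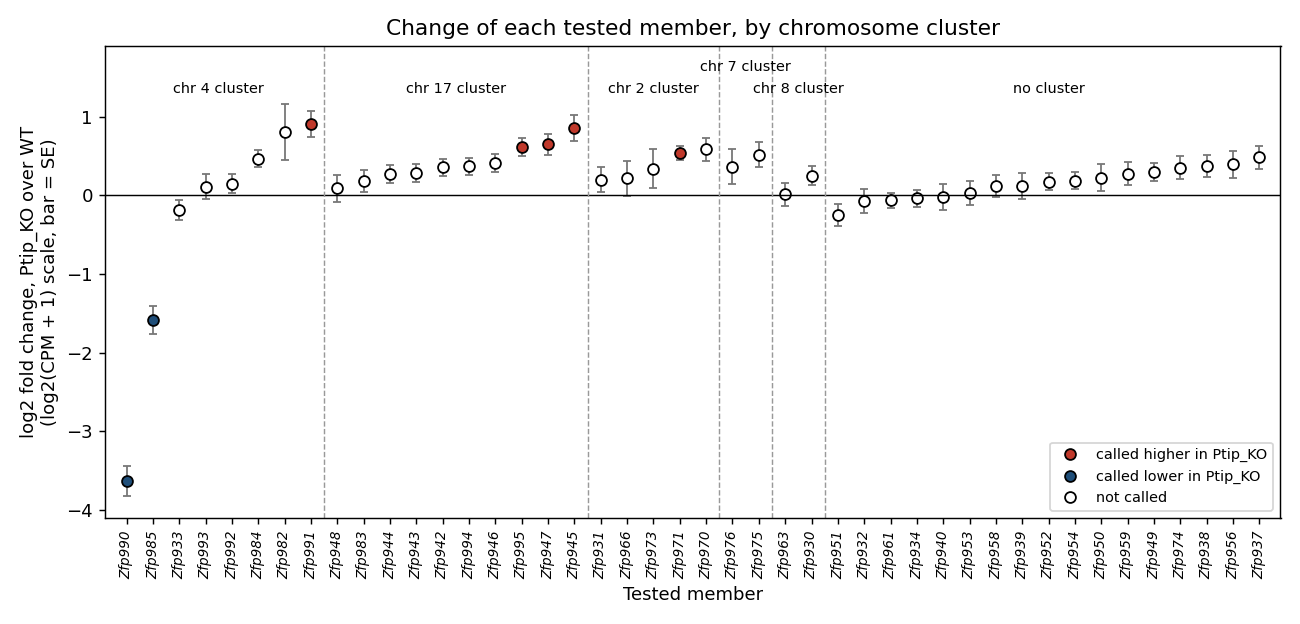
Log2 fold change of Ptip_KO over WT on the log2(CPM + 1) scale for each of the 44 tested members, grouped by cluster, with bars of 1 standard error and filled points for members called by limma. The 2 called lower are far from the rest at −3.63 and −1.58, and the 5 called higher lie between 0.54 and 0.91.

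As a list, 36 of the 44 tested members had a positive log2 fold change, with a median of 0.26. Over all 12357 tested genes, 50.5% were positive and the median was 0.00. In 24 members both Ptip_KO libraries lay above both WT libraries and in 5 both lay below, where the corresponding shares of all tested genes were 27.7% and 27.3%. The summed level of the 58 members was 534 and 521 CPM in Ptip_KO libraries, against 423 and 453 CPM in WT libraries. WT replicate 1 had the lowest value of the 4 libraries in 30 of the 44 tested members, and without it 32 of 44 were positive, with a median of 0.16. Without WT replicate 2 the numbers were 37 of 44 and 0.35. With no filter, 44 of 58 members and 9251 of 18276 genes were positive, with a median of 0.19 for the members. Members without a near-identical copy gave a like picture, with 21 of 25 tested positive and a median of 0.27.

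The number of members called higher varied between fits, as did the number called over the whole table, but they did not always move together. With no filter, limma called 2 members and 289 of 18276 genes higher, against 5 members and 300 of 12357 genes in the main fit. In fits that leave 1 WT library, each gene's own spread comes only from the Ptip_KO pair and may be technical. With Ptip_KO replicate 1 left out, 0 members and 0.914% of all tested genes were called higher by limma, and with Ptip_KO replicate 2 left out, 0 members and 0.995%. Without WT replicate 1 the calls were 5 members and 4.73% of all tested genes, and without WT replicate 2 they were 10 members and 5.66%. In the fits that left out a Ptip_KO library, fold changes of these 2 genes stayed close to those with all 4 libraries: Zfp971 had a log2 fold change of 0.51 without replicate 1 and 0.57 without replicate 2, and Zfp945 had 0.85 and 0.86. On the recovered reads edgeR called 1 member higher and 2 lower, where 1.97% and 3.37% of all genes were called, and DESeq2 called 8 higher and 2 lower, where 6.31% and 9.11% were. Rescaling all libraries to a common sum left 1 member called higher, Zfp971, with 2 lower, and 2.07% of all tested genes called higher.

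Other genes of the same naming series shifted in the same direction, with a smaller median when all 4 libraries were used. Of 258 tested genes named Zfp with another number, 204 had a positive log2 fold change, with a median of 0.15. By limma 3 of the 258 were called higher and 2 lower, where 2.43% and 3.86% of all tested genes were. Without WT replicate 1 the medians were close, at 0.16 for members and 0.13 for these genes. Without WT replicate 2 they were 0.35 and 0.18. The difference between these genes and the members was not tested. Among genes that are no members but lie inside the 5 clusters, 24 were tested, 21 had a positive log2 fold change and the median was 0.31. Some of these 24, such as Zfp820, are also among the 258 genes above, so the lists overlap. By limma 0 of the 24 were called in either direction, with 9 of 24 at an unadjusted p under 0.05 beside 23.8% of all tested genes, and the count by edgeR was also 0, while DESeq2 called 3 higher and 1 lower. Zfp820, in the chromosome 17 cluster, had 4.83 and 5.14 CPM in Ptip_KO libraries, against 2.21 and 3.06 CPM in WT libraries (log2 fold change 0.73, limma adjusted p = 0.0678). On chromosome 4, the zinc finger gene Gm13212 had 12.2 and 11.9 CPM in Ptip_KO libraries, against 8.98 and 8.62 CPM in WT libraries (limma adjusted p = 0.0924). The lincRNA Gm13166 had 1.23 and 0.856 CPM in Ptip_KO libraries, against 4.21 and 2.17 CPM in WT libraries (limma adjusted p = 0.0982). On chromosome 2, Gm14305, whose gene overlaps Zfp973, had 4.68 and 4.88 CPM in Ptip_KO libraries, against 3.03 and 3.13 CPM in WT libraries (limma adjusted p = 0.0951).

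**Figure D4:**
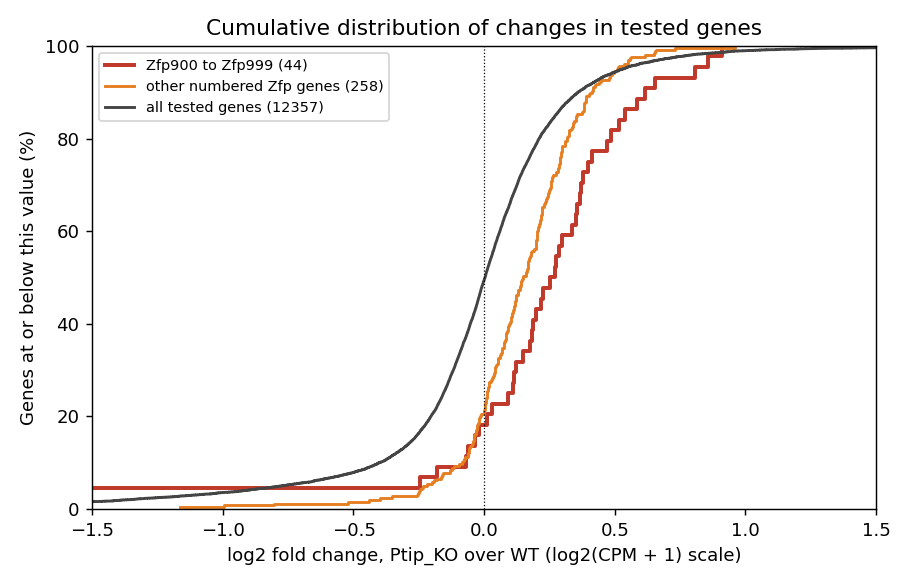
Cumulative share of genes, in percent, at or below each log2 fold change of Ptip_KO over WT, for the 44 tested members, 258 other numbered Zfp genes and all 12357 tested genes. The member curve lies to the right of the all-gene curve over most of the range, with medians of 0.26 and 0.00, while Zfp990 and Zfp985 fall left of the axis.

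None of a list of genes tied to KRAB zinc finger silencing passed the test by limma. The list holds corepressors, histone and DNA methyltransferases, heterochromatin proteins, chromatin remodellers, histone H3.3 genes and the zinc finger genes Zfp809 and Zkscan3. Of its 32 tested genes, 0 were called higher or lower by limma, with 6 of 32 at an unadjusted p under 0.05, a smaller share than the 23.8% of all tested genes, and the median log2 fold change was −0.06. Counts by edgeR were also 0, and DESeq2 called 2 lower, Uhrf1 and Dnmt1. Trim28, the corepressor that binds the KRAB domain, had 525 and 514 CPM in Ptip_KO libraries and 538 and 543 CPM in WT libraries (log2 fold change −0.06, limma adjusted p = 0.751). Setdb1, which trimethylates histone H3 lysine 9, had 77.5 and 84.5 CPM in Ptip_KO libraries and 88.8 and 87.1 CPM in WT libraries (limma adjusted p = 0.477). Uhrf1, which guides DNA methyltransferase to newly copied DNA, had 284 and 354 CPM in Ptip_KO libraries and 451 and 419 CPM in WT libraries (log2 fold change −0.45, limma adjusted p = 0.109). Dnmt1, the maintenance DNA methyltransferase, had 728 and 787 CPM in Ptip_KO libraries and 934 and 944 CPM in WT libraries (limma adjusted p = 0.150). For Suv39h1, a histone H3 lysine 9 methyltransferase, values were 110 and 106 CPM in Ptip_KO libraries and 127 and 128 CPM in WT libraries (limma adjusted p = 0.154). Trim24, a relative of Trim28, had 46.1 and 47.4 CPM in Ptip_KO libraries and 35.8 and 40.8 CPM in WT libraries (limma adjusted p = 0.169).

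Levels among the members spanned a wide range. Per kilobase of merged exon, Zfp971 was highest, at 24.7 CPM per kilobase in Ptip_KO and 16.9 in WT, followed by Zfp984 at 10.9 in Ptip_KO and 7.82 in WT. Zfp970, at 9.82 in Ptip_KO and 6.44 in WT, and Zfp954, at 8.50 in Ptip_KO and 7.41 in WT, came next, and their order differed between the groups. Of the 44 tested members, 22 averaged at least 10 CPM over the 4 libraries. At the low end, all 14 members under the filter averaged 0.848 CPM or less, and 8 of these lie in the chromosome 4 cluster.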

How the data were processed

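The labels' protocols name a strand-specific poly(A) kit, Illumina TruSeq Stranded mRNA. TopHat2 2.0.10, HTSeq 0.6.0, edgeR 3.8.6 and mm10 appear in the submitters' processing notes with no role given, and the strand setting of the counting is not given in the sources used here. The table deposited by the authors holds a signal for each gene, by its name edgeR CPM on the effective library size, and its columns do not share 1 total. Every value was a whole multiple of the smallest in its library, and 100% came out whole within 0.01 read, so reads were recovered. No gene listed has fewer than 10 reads in its top library. A count of 0 allows up to 3 reads, 0.0380 to 0.0428 CPM, which covers counting error only.

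Symbols and positions are from GENCODE M21 (GRCm38, the assembly of mm10). In total 18249 identifiers matched, and 92.2% carried the same version. The test was limma 3.58.1 (R 4.3.3) with a variance prior that follows the mean, applied to log2(CPM + 1) of genes at 1 CPM or more in 2 or more libraries, with genotype as the only term, two-sided, at a Benjamini-Hochberg adjusted p under 0.05. Fold changes are on this scale. Alternatives were edgeR 4.0.16 quasi-likelihood and DESeq2 1.42.0 on recovered reads, other pseudocounts, filters, scalings and priors, a term for the replicate number, and fits that omit 1 library in turn. edgeR with no filter was added after the data were seen. Where 1 library of a group is left, it is assumed to vary like the other group. With 1 WT library left, that spread is the one between the Ptip_KO libraries, which may be technical. On data simulated for this comparison (200 of 12357 genes altered), the same test found 28.4% of 1.5-fold, 80.6% of 2-fold and 98.5% of 4-fold changes and made 10 false calls. The simulation gave genes of like level the same spread, equal in both groups, so these shares may not hold for the real data. Replicates were not one library: comparing their reads over genes gave a chi-square of 39.2 (Ptip_KO) and 83.6 (WT) per degree of freedom. Transcripts were compared with BLAST 2.17.0.

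The members and lists were chosen with earlier results of these data known. Named genes were Paxip1, called members, members without overlap changed by at least 1 in log2, the 6 highest by CPM, the extremes of each cluster, and up to 4 genes of the corepressor and neighbour lists with the smallest p. Other genes were named after their values were seen.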

Additional observations from a re-analysis of the deposited data

How the results depend on the processing

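Zfp990 and Zfp985, whose direction the filter fixed, were also called lower with no filter. Against 5 members called higher, the count was 2 with no filter, 8 by DESeq2, 1 by edgeR and also 1 with libraries set to a common sum, 3 without members that have a near-identical transcript, and 0 to 10 with each library left out in turn. Against 2 called lower, it was 1 with a filter of 5 CPM, which removed Zfp985, and 0 without members that have a near-identical transcript, since both have one. With a pseudocount of 0.25 or 5, median-of-ratios factors or a robust variance prior, 4 to 6 members were higher and 2 lower. Over the alternatives, log2 fold changes ranged from 0.49 to 0.59 for Zfp971 (called in 13 of 15, largest adjusted p 0.162), 0.64 to 1.10 for Zfp991 (11, 0.113), 0.64 to 1.06 for Zfp945 (10, 0.114), 0.44 to 0.69 for Zfp995 (10, 0.194) and 0.46 to 0.76 for Zfp947 (7, 0.214). Of 355 values of the 24 named genes, 1 changed sign: Zfp948 without WT replicate 1, at a log2 fold change of −0.0765 (range −0.0765 to 0.26 with each library left out). In each case not explained by the construction of the alternative, the cause was not tested.

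The labels number the samples 1 and 2 in each group but do not say that a number marks a shared batch, and the second WT sample is described as WT_3, so the replicate block was no main result and may pair unrelated samples. The differences between replicates 1 and 2 of the 2 groups correlated across genes with r = 0.33. With the replicate block, 6 members were higher and 2 lower, while over all tested genes 691 were higher and 1030 lower, against 300 and 477 without it. For the other numbered Zfp genes, 11 were higher and 4 lower with the replicate block, and for cluster neighbours 1 was higher and 1 lower.

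For the other numbered Zfp genes, with 3 higher and 2 lower in the comparison as reported, 0 were higher with no filter and 14 by DESeq2, and 0 to 15 with each library left out. Lower calls were 0 with a pseudocount of 5 or a common sum, 1 with a filter of 5 CPM or by edgeR, 4 by edgeR with no filter, 5 by DESeq2, and 0 to 5 with each library left out. In the corepressor list, 2 genes were lower by DESeq2 and 0 to 1 with each library left out. Among cluster neighbours, DESeq2 called 3 higher and 1 lower, edgeR with no filter 1 lower, and leaving out each library gave 0 to 2 higher and 0 to 1 lower. A maximum gap of 5 Mb gave 7 clusters with 46 members in place of 5 with 39. For members with only a few reads in a library, such as Zfp978, no small difference was detectable at this depth.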

Other observations

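Across 12348 tested genes with a transcript sequence, the log2 fold change had a Spearman correlation of −0.08 with the GC percentage of the longest transcript and of 0.01 with exonic length. Genes are not independent replicates, and these values only describe the table.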
